A study of Mus musculus with 10 samples.

Results

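The comparison described here is that of Fsk with DMSO in Prg4-tdTomato+ cells, across all genes with enough reads to test. Its members were taken from the sample labels, which give 6 of the 10 libraries of the series to these cells. There were 3 libraries from Fsk cultures, numbered 1, 4 and 5, and 3 libraries from DMSO cultures, numbered 1, 3 and 5. All came from 1 mouse embryonic stem cell line, 3xR, at day 14, and both groups carry the line's reporters, an eGFP named for Col2a1 and a tdTomato named for Prg4. Fsk is an abbreviation in common use for forskolin, although the labels leave it unexpanded and state neither its dose nor the time of exposure. The other 4 libraries, of Col2a1-eGFP+ cells in DMSO, were outside the comparison. They entered the choice of genes tested, the scaling and the estimate of the spread between replicates, and their levels are also given as a description. Because the cells descend from a single line and nothing says that the libraries came from separate cultures, a p-value measures only the spread between these samples, which may be technical.

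Forskolin activates adenylyl cyclase, the enzyme that makes cyclic AMP. Cyclic AMP activates protein kinase A, which phosphorylates CREB, a transcription factor that binds cyclic AMP response elements in DNA. Phosphodiesterases break cyclic AMP down, and several of their genes, like that of the CREB relative Crem, are known targets of the pathway. In bone-forming cells the pathway is best known as the effector of parathyroid hormone, which raises the osteoclast-forming cytokine RANKL and lowers its decoy receptor osteoprotegerin.

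Library totals were 15355459 to 18988782 counts in the Fsk group and 18023599 to 20408696 in the DMSO group. Levels are counts scaled to the size of each library (CPM), given for Fsk libraries 1, 4 and 5 and then for DMSO libraries 1, 3 and 5. Across genes, log2 levels correlated at 0.944 to 0.955 within the Fsk group, at 0.917 to 0.928 within the DMSO group and at 0.884 to 0.938 between the groups. DMSO library 3 lay farthest out on the first principal component of the 6 libraries, which held 39.1% of the variance, and DMSO library 5 had the most genes detected, 30158. Mitochondrially encoded genes took 4.85 ± 1.24% of Fsk counts and 3.29 ± 1.46% of DMSO counts (SD, n = 3 each; exact two-sided permutation p = 0.2, with 0.1 the smallest that 3 against 3 libraries allow). The gene behind the sorted reporter was near the detection limit in both groups. Prg4, which encodes the joint lubricant lubricin, stood at 0.667, 0.787 and 0.693 CPM in the Fsk libraries and at 1.25, 0.776 and 0.479 CPM in the DMSO libraries. The groups overlapped, and the log2 change (log2 fold change, Fsk over DMSO) of -0.22 (SE 1.15, adjusted p = 0.976) turned positive without DMSO replicate 1, at 0.20. The cells are therefore called by their reporter here and not by this transcript.

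Of 16169 genes tested with edgeR's quasi-likelihood test at a Benjamini-Hochberg adjusted p below 0.05, 48 were higher in Fsk cells (0.297%) and 44 were lower (0.272%), together 0.569% of genes. Changes are given as log2 fold changes, Fsk over DMSO, written log2 change from here on. The smallest of the 92 was 1.70 in size, and in all 92 the 3 Fsk values lay wholly above or below the 3 DMSO values. Among all genes tested, 9.01% had Fsk values wholly above and 7.98% wholly below the DMSO values, and the median log2 change was -0.03. Protein-coding genes made up 45 of the rises and 43 of the falls. In the eGFP+ DMSO libraries, 47 of the 48 genes that rose and all 44 that fell had a mean level nearer to that of DMSO than to that of Fsk tdTomato+ cells on the log2 scale, given as a description. The genes were chosen for a gap between Fsk and DMSO, and the eGFP+ libraries were also from DMSO cultures. The count is therefore not a test, and the share over all genes was not computed.

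The number of calls depends on single libraries. With each of the 6 libraries left out in turn, 22 to 75 genes passed, with the fewest without Fsk replicate 1 and 29 without DMSO replicate 3. All 92 genes kept their direction in each of these fits. Genes were filtered anew in each fit, so the median of a gene list without 1 library may rest on other members. The 10 genes that passed in all 6 were Scg2, Rerg, Shisal1, Otor, Igfbp2, Pde4b and Pde3b among the rises and Tbc1d2, Mgll and Als2cl among the falls, while 16 passed in none of the 6. DESeq2 called 566 of the 16169 genes, the 92 among them. Of the genes named by rule, 24 that did not pass edgeR's test passed by DESeq2. Where a gene is said not to pass, the test is edgeR's unless another is named.

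**Figure D1:**
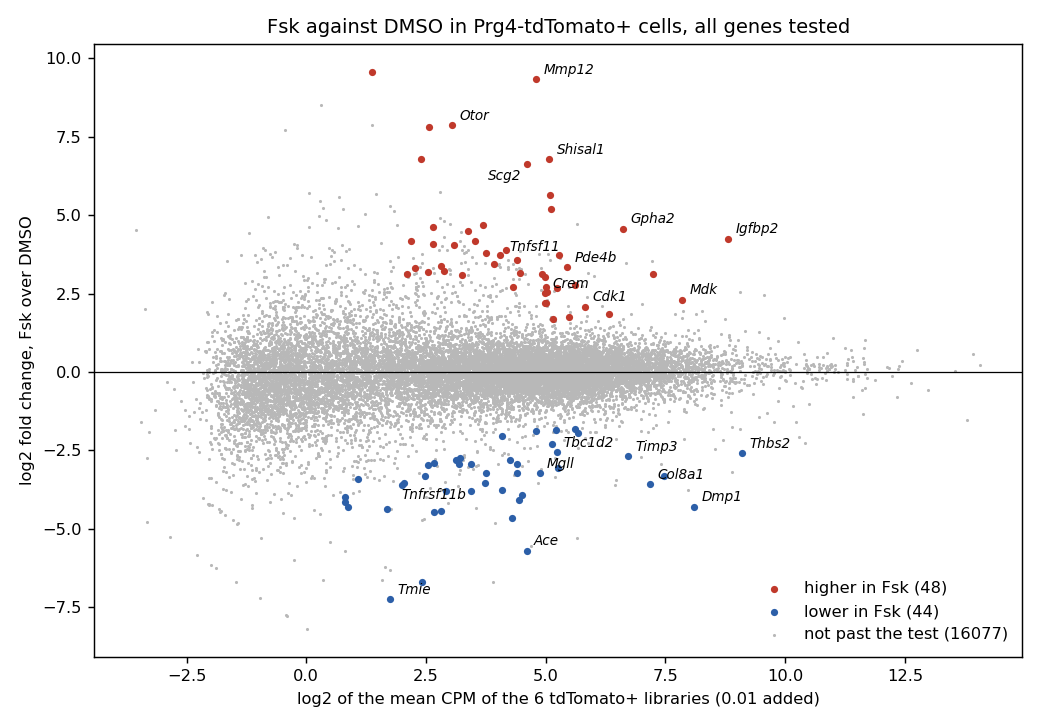
Each point is 1 of the 16169 genes tested, with the log2 of its mean CPM over the 6 tdTomato+ libraries on the x axis and its log2 fold change, Fsk over DMSO, on the y axis. The 48 genes higher in Fsk (red) and the 44 lower (blue) lie at least 1.70 from 0, and genes of that size are also found among those not past the test (grey).

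Enzymes that degrade cyclic nucleotides, Pde4b, Pde3b and Pde10a, rose. They were 3 of 15 phosphodiesterase genes tested, and none was called lower. Of the 15 log2 changes 11 were positive and 4 negative, the lowest at -2.14. At an unadjusted p below 0.05 in edgeR's test, 6 were higher and 1 lower (4.997% and 5.40% of all genes). The median of the family was a log2 change of 0.94, against -0.03 over all genes. Pde4b (ENSMUSG00000028525, on chr4:102087543-102607259, plus strand, GRCm38), a cyclic AMP-specific enzyme, stood at 70.6, 109 and 58.6 CPM in Fsk libraries and at 7.77, 3.78 and 11.9 CPM in DMSO libraries. The log2 change was 3.34 (SE 0.47, adjusted p = 0.0118). Pde3b, an enzyme that insulin signalling activates in fat and liver, had 36.1, 28.2 and 36.3 CPM in Fsk and 1.09, 2.64 and 3.07 CPM in DMSO libraries, a log2 rise of 3.88 (SE 0.57). Pde10a, known from the striatum of the brain, had 66.2, 45.6 and 56.5 CPM in Fsk and 7.19, 9.26 and 12.1 CPM in DMSO libraries, a log2 rise of 2.56 (SE 0.39). In all 3 genes the lowest Fsk value was several times the highest DMSO value. Pde4b and Pde3b kept their calls with any 1 of the 6 libraries left out, whereas Pde10a had adjusted p-values of 0.0524 to 0.0544 without Fsk replicate 1, DMSO replicate 1 or DMSO replicate 3. Pde4d and Pde3a also had Fsk values wholly above their DMSO values but did not pass. Pde4d had 71.2, 111 and 89.3 CPM in Fsk and 21.9, 19.7 and 37.0 CPM in DMSO libraries (log2 change 1.79, SE 0.43, adjusted p = 0.097), and Pde3a had a log2 change of 1.17 (SE 0.41, adjusted p = 0.289).

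Among the makers and transducers of cyclic AMP no call was made. Of 21 genes for adenylyl cyclases, subunits and inhibitors of protein kinase A and related proteins, 0 passed edgeR's test, 0 were higher and 2 lower at an unadjusted p below 0.05 (4.997% and 5.40% of all genes), and DESeq2 and limma-voom called 0. Their median log2 change was -0.14. Adcy9, an adenylyl cyclase, stood at 3.45, 3.54 and 3.02 CPM in Fsk and 7.61, 9.67 and 15.8 CPM in DMSO libraries, lower in each Fsk library than in any DMSO library, with an adjusted p of 0.233. Prkar1a, a regulatory subunit of protein kinase A, had 371, 341 and 294 CPM in Fsk and 279.7, 221 and 246 CPM in DMSO libraries, and its log2 change of 0.43 (SE 0.30) did not pass.

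Of the CREB family and its coactivators and kinases, 1 of 15 genes rose, against 0.297% of all genes, and none was called lower. Of the 15 log2 changes 10 were negative, against 51.7% of all genes, with a median of -0.36. At an unadjusted p below 0.05 in edgeR's test, 1 was higher and 1 lower (4.997% and 5.40% of all genes). The gene that rose was Crem, whose short repressor forms are induced by cyclic AMP in endocrine cells and close a feedback loop. Crem had 47.0, 53.5 and 61.1 CPM in Fsk and 9.75, 8.90 and 9.54 CPM in DMSO libraries, and in both groups the 3 values lay close together. Its log2 change was 2.52 (SE 0.48, adjusted p = 0.0318), and it ran from 2.43 to 2.61 with 1 library left out, where its adjusted p-values of 0.0839 to 0.147 no longer passed. Gene-level counts do not separate its isoforms. Sik1, a kinase that restrains CREB coactivators and is itself a textbook cyclic AMP target, stood at 32.4, 13.2 and 19.7 CPM in Fsk and 41.1, 102 and 30.7 CPM in DMSO libraries (log2 change -1.41, SE 0.48, adjusted p = 0.271), and the groups overlapped.

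Immediate early genes are switched on within minutes of many stimuli. Of the 25 tested 0 passed edgeR's test, and DESeq2 and limma-voom called 0. At an unadjusted p below 0.05, 0 were higher and 3 lower (4.997% and 5.40% of all genes). Their log2 changes were negative in 21 of 25, against 51.7% of all genes, with a median of -0.42. The Fsk values lay wholly above the DMSO values in 2 of the 25 and wholly below in 4 (9.01% and 7.98% of all genes). Fosb had 118, 117 and 104 CPM in Fsk and 252, 217 and 335 CPM in DMSO libraries, and Klf4 had 44.2, 19.9 and 58.5 CPM in Fsk and 108, 76.7 and 157 CPM in DMSO libraries. In both genes each Fsk value lay below each DMSO value, with adjusted p-values of 0.375 and 0.225. Nr4a1, an orphan nuclear receptor gene and a classic cyclic AMP target, had 177, 205 and 149.7 CPM in Fsk and 188, 143 and 470.0 CPM in DMSO libraries, which overlapped. Atf3, a stress-inducible relative of CREB placed in the list of stress genes, fell, with 14.9, 7.93 and 12.5 CPM in Fsk and 33.8, 88.4 and 52.8 CPM in DMSO libraries (log2 change -2.31, SE 0.45, adjusted p = 0.0359). It passed in 1 of the 6 fits that leave out a library, that without DMSO replicate 1, and was at -1.87 without DMSO replicate 3 (adjusted p = 0.157).

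Genes of regulated secretion, which neurons and endocrine cells use to store and release peptides, held some of the largest rises. Of 26 such genes listed 15 were tested, of which 3 were higher and none lower (0.297% and 0.272% of all genes). Of the 15 log2 changes 11 were positive and 4 negative, with a median of 1.79. A gene with enough reads in the 3 Fsk libraries alone is kept for testing, which can raise the count and the median. The 26 genes summed to 267 to 573 CPM in Fsk and 295 to 1083 CPM in DMSO libraries, which overlapped. The median was 0.47 in the fit without Fsk replicate 1, where genes were filtered anew and the members tested may differ. Scg2 (ENSMUSG00000050711, chr1:79434669-79440120, minus strand), a secretogranin that is packed into dense-core granules and cut into the peptide secretoneurin, had 11.9, 53.1 and 80.7 CPM in Fsk and 0.573, 0.207 and 0.639 CPM in DMSO libraries. DMSO cells held a few reads per library, 11, 4 and 16, and every Fsk library was far above them. Its log2 change was 6.65 (SE 0.74, adjusted p = 0.00506), the smallest p of all genes, and 6.08 to 7.12 with 1 library left out. Syt13, an atypical member of the synaptotagmin family of vesicle proteins, had 143, 23.8 and 33.9 CPM in Fsk and 1.09, 1.5 and 1.36 CPM in DMSO libraries, with Fsk library 1 well above the other 2. It rose by 5.65 on the log2 scale (SE 0.93, adjusted p = 0.018), and by 4.45 without Fsk replicate 1. It passed in 2 of the 6 fits without 1 library, those without Fsk replicate 4 or 5, and had adjusted p-values of 0.0563 to 0.0839 in the other 4. Npy, the appetite peptide neuropeptide Y, had 20.5, 8.04 and 6.83 CPM in Fsk and 0.521, 0.569 and 0.958 CPM in DMSO libraries, again highest in Fsk library 1. Its log2 change of 4.09 (SE 0.79, adjusted p = 0.0343) lost its call in each of the 6 fits without 1 library, at adjusted p-values of 0.0728 to 0.163, and was 3.43 without Fsk replicate 1.

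Pnoc, the precursor of the opioid-like peptide nociceptin, was outside that list and rose as well, with 402, 76 and 132 reads in the Fsk libraries and 0, 0 and 3 reads in the DMSO libraries. With 3 DMSO reads in all, the Fsk level was 237 times the DMSO level (95% exact interval 80.8 to 1154, covering counting error only), and the call was lost without Fsk replicate 1 (adjusted p = 0.0607). The fitted log2 change of 7.82 was 6.74 without Fsk replicate 1 and 10.70 without DMSO replicate 5. Penk, the precursor of the enkephalins, lay on the other side. It stood at 52.8, 29.2 and 22.0 CPM in Fsk and 58.1, 913 and 433 CPM in DMSO libraries, where DMSO library 1 was just above the highest Fsk library and the other 2 were far above it. Its log2 change of -3.75 (SE 0.90, adjusted p = 0.0963) did not pass. Gap43, a growth cone protein of extending axons, had 31.8, 9.11 and 6.88 CPM in Fsk and 0.730, 0.672 and 1.44 CPM in DMSO libraries and rose by 4.05 on the log2 scale (SE 0.80, adjusted p = 0.0388), a call lost in each of the 6 fits, with 3.07 without Fsk replicate 1. It was the 1 called gene among 7 tested neural markers, whose summed level was 27.2 to 84.8 CPM in Fsk and 45.3 to 62.4 CPM in DMSO libraries. Nes, the neural progenitor filament gene nestin, had 20.3, 2.70 and 8.72 CPM in Fsk and 24.2, 36.7 and 22.4 CPM in DMSO libraries, so each Fsk value was below each DMSO value, and Neurog1 had no read in the 6 libraries. Whether neural cells have a part in the rises was not tested.

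Promoter windows of 250 bases before to 50 after each transcription start, from RefSeq on GRCm38.p6 and matched by symbol, were searched on both strands for response elements. The full cyclic AMP response element TGACGTCA was in 2 of 52 windows of 37 genes that rose (3.85%), in 0 of 50 windows of 35 genes that fell, and in 417 of 14403 windows of all genes matched (2.90%). Its core, TGACG, was in 21.2% of windows of genes that rose, 20% of windows of genes that fell and 29.7% of all windows. The AP-1 letters TGANTCA were in 8 of 52 windows of genes that rose (15.4%). They were in 4 of 50 windows of genes that fell (8%) and in 5.37% of all. The 8 windows belonged to Ctla2a, Gfra4, Igfbp2, Mmp12, Rorb and Wscd1, so some genes gave more than 1 window. The TEAD letters GGAATG were in 5 of 52 windows of genes that rose (9.62%), 8 of 50 that fell and 12.4% of all. The NF-Y letters CCAAT were in 20 of 52 windows of genes that rose (38.5%), 14 of 50 that fell and 37.6% of all. The windows with the full element belonged to Scg2 and to Gpm6b, a neural and osteoblast membrane protein gene. Pde10a and Npy, called genes of the phosphodiesterase and secretory groups, held neither the full element nor its core in a listed window. The windows of Scg2 (chr1:79439977-79440276, minus strand) and Pde4b (chr4:102421305-102421604, plus strand) are printed 5′ to 3′ because these genes lead the same groups. The Pde4b window is that of the most upstream of 4 listed starts. It lies inside the annotated gene span given above, so the 5′ end of that span was not searched. Which start these cells use was not tested. Capitals mark the full element 68 bases before the Scg2 start and the TEAD letters GGAATG 56 bases before it, and, in Pde4b, the core on the opposite strand 34 bases before the start. A match is a run of letters and not a measured binding site.
Scg2: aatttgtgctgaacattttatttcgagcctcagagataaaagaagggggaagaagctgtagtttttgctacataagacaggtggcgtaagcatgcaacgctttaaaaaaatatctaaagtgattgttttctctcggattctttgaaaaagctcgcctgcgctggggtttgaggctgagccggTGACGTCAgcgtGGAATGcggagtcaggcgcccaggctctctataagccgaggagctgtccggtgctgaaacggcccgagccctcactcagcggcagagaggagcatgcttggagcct
Pde4b: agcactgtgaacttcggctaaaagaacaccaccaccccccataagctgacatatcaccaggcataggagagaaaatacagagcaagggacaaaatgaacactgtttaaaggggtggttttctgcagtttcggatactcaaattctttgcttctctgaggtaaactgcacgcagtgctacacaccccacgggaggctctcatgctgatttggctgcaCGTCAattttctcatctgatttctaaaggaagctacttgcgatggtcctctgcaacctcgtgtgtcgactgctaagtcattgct

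**Figure D2:**
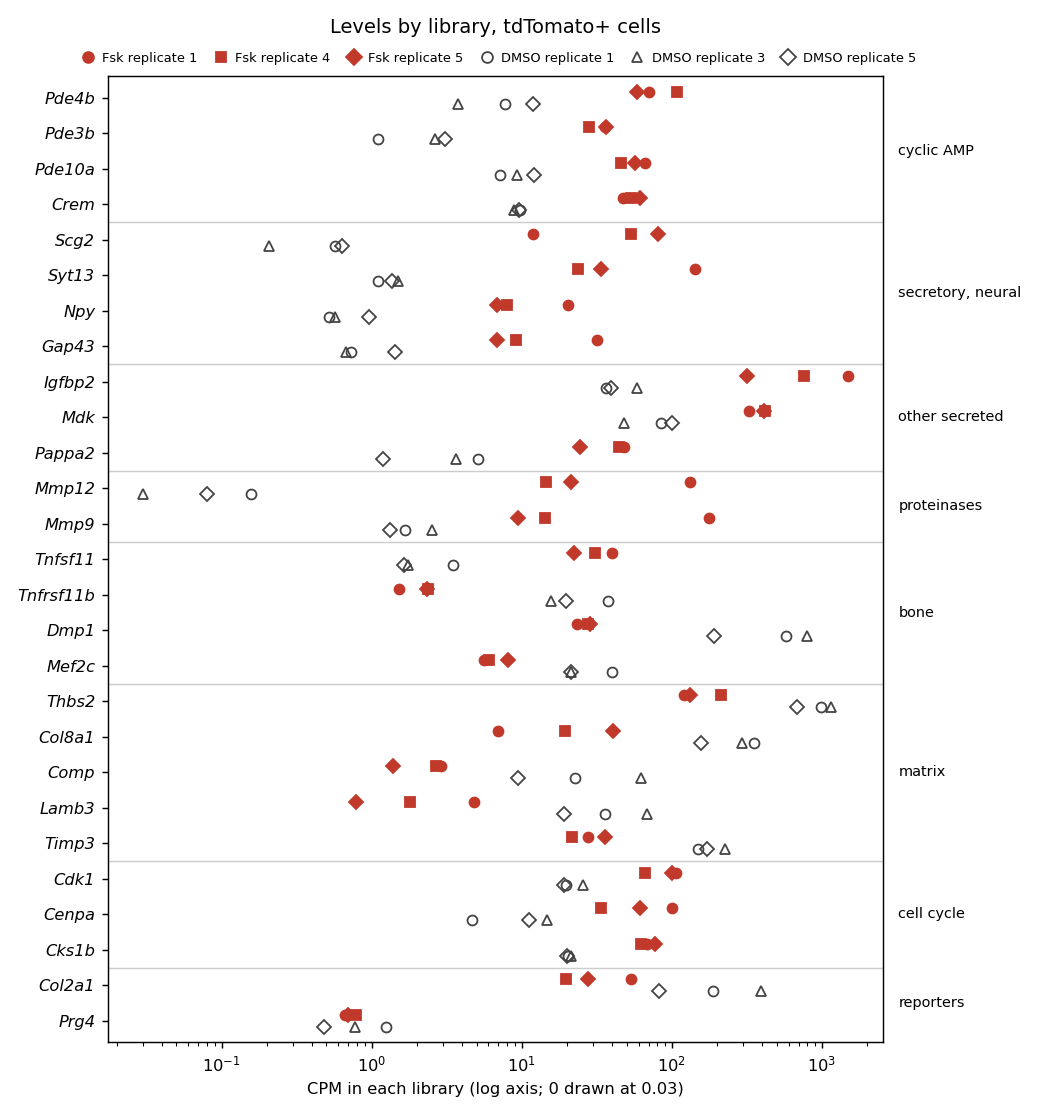
CPM (log axis, 0 drawn at 0.03) of 27 genes in each tdTomato+ library, with Fsk libraries as filled red symbols above and DMSO libraries as open symbols below within each gene. Fsk values are separate from DMSO values in all genes shown but Prg4, and Fsk library 1 is the highest of its group in Syt13, Npy, Gap43, Mmp12 and Mmp9 and the lowest in Scg2.

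Igfbp2 rose and was the 1 call among 15 genes tested of the insulin-like growth factor (IGF) list. Igfbp2 (ENSMUSG00000039323, chr1:72824503-72852474, plus strand), which binds insulin-like growth factors outside the cell, had 1484, 761 and 318 CPM in Fsk and 36.2, 59.1 and 39.4 CPM in DMSO libraries. The Fsk libraries differed severalfold among themselves and all exceeded the DMSO libraries. Its log2 change was 4.25 (SE 0.57, adjusted p = 0.0104), and 3.6 to 4.66 with 1 library left out, past the test each time. The median of the list was 0.27 (-0.14 without Fsk replicate 1). Igf1, the growth factor itself, stood at 63.5, 452 and 304 CPM in Fsk and 19.2, 11.6 and 40.2 CPM in DMSO libraries (adjusted p = 0.0886), and Igfbp4 at 2269, 1407 and 981 CPM in Fsk and 458, 522 and 428 CPM in DMSO libraries (adjusted p = 0.0891). Neither passed, and in both each Fsk value lay above each DMSO value. Pappa2, a protease that cuts IGF-binding proteins, was named after its values were seen. It had 48.0, 44.6 and 24.5 CPM in Fsk and 5.11, 3.67 and 1.20 CPM in DMSO libraries, a log2 rise of 3.56 (SE 0.55, adjusted p = 0.0118) that was lost without Fsk replicate 1, Fsk replicate 4 or DMSO replicate 3 (adjusted p = 0.0528 to 0.0577).

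Mdk, the heparin-binding growth factor midkine, had 326, 418 and 411 CPM in Fsk and 84.4, 48.3 and 101 CPM in DMSO libraries, a log2 rise of 2.31 (SE 0.42, adjusted p = 0.0277). Lrrc17, a secreted leucine-rich protein reported to restrain osteoclast formation, had 165, 351 and 303 CPM in Fsk and 31.8, 21.7 and 39.7 CPM in DMSO libraries, a log2 rise of 3.13 (SE 0.58, adjusted p = 0.0294). In both genes the groups stood well apart, and both lost their call in each of the 6 fits without 1 library, at adjusted p-values of 0.0525 to 0.147. Gpha2, the alpha chain of the glycoprotein hormone thyrostimulin, had 91.0, 311 and 161 CPM in Fsk and 1.04, 6.72 and 15.9 CPM in DMSO libraries (log2 change 4.57, SE 0.89, adjusted p = 0.036) and passed in 1 of the 6 fits, without DMSO replicate 5, where the log2 change was 5.6. Wif1, a secreted inhibitor of WNT ligands, had 5.82, 21.2 and 24.3 CPM in Fsk and 1.30, 2.74 and 2.0 CPM in DMSO libraries and rose by 3.08 on the log2 scale (SE 0.55, adjusted p = 0.0238), passing in 1 of the 6 fits. The other 16 of 17 genes in the WNT list did not pass, and the median was 0.01. Of the 17 log2 changes 9 were positive and 8 negative, from -4.71 to 4.71. At an unadjusted p below 0.05 in edgeR's test, 3 were higher and 3 lower (4.997% and 5.40% of all genes). In that list Sfrp2, another secreted WNT antagonist, had 62.6, 57.1 and 169 CPM in Fsk and 0.521, 0.569 and 9.78 CPM in DMSO libraries and did not pass (adjusted p = 0.0975).

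Rerg, Shisal1 and Otor were other rises that held in every fit without 1 library. Rerg, a Ras-like protein first described as an oestrogen-regulated growth inhibitor, had 15.2, 23.6 and 27 CPM in Fsk and 0.782, 1.24 and 1.56 CPM in DMSO libraries (log2 change 4.19, SE 0.47, adjusted p = 0.00506). Shisal1, a shisa-like membrane protein gene, had 75.6, 72.7 and 52.0 CPM in Fsk and 0.156, 0.569 and 1.04 CPM in DMSO libraries (log2 change 6.78, SE 0.86, adjusted p = 0.0079). Within each group of both genes the values were close by comparison with the gap between the groups. Otor, which encodes otoraplin, a secreted protein of cartilage and the inner ear, had 56, 631 and 212 reads in the Fsk libraries and 1, 2 and 1 reads in the DMSO libraries, a level 262 times as high (95% exact interval 102 to 965, counting error only). Its fitted log2 change of 7.87 was 6.63 without Fsk replicate 4, and limma-voom did not call it (adjusted p = 0.109). That of Shisal1 was 7.5 without DMSO replicate 5. Crabp1, a carrier of retinoic acid in the cytoplasm, had 74.7, 31.9 and 12.3 CPM in Fsk and 6.57, 3.26 and 3.51 CPM in DMSO libraries and rose by 3.15 on the log2 scale (SE 0.60, adjusted p = 0.0336), but by 2.32 without Fsk replicate 1 (adjusted p = 0.163). The other 11 of 12 genes of retinoid metabolism and signalling did not pass, and the median was 0.19. Crabp1 passed in 1 of the 6 fits, that without Fsk replicate 5, whereas Rerg, Shisal1 and Otor passed in all 6.

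The cytokine pair that sets osteoclast formation changed in opposite directions. Tnfsf11 (ENSMUSG00000022015, chr14:78277445-78308043, minus strand), the gene of RANKL, the ligand that drives precursors to become osteoclasts, had 39.7, 30.6 and 22.2 CPM in Fsk and 3.49, 1.76 and 1.64 CPM in DMSO libraries. Tnfrsf11b, the gene of osteoprotegerin, the decoy receptor that captures RANKL, had 1.52, 2.36 and 2.33 CPM in Fsk and 37.7, 15.6 and 19.8 CPM in DMSO libraries. For both genes the groups were several times apart. The log2 changes were 3.75 (SE 0.55, adjusted p = 0.0118) for Tnfsf11 and -3.55 (SE 0.49, adjusted p = 0.0112) for Tnfrsf11b. Without Fsk replicate 1 both had an adjusted p of 0.0538, and Tnfsf11 had 0.0528 without DMSO replicate 3. The other 8 of 10 tested genes of this list did not pass. Of the 10 log2 changes 9 were negative, against 51.7% of all genes, with a median of -1.28. Pth1r, the receptor of parathyroid hormone and PTHrP, had 11.4, 2.47 and 1.34 CPM in Fsk and 66.7, 30.9 and 23.5 CPM in DMSO libraries (log2 change -3.00, SE 0.71, adjusted p = 0.0949). Ptgs2, the inducible cyclooxygenase of prostaglandin synthesis, had 102, 227 and 377 CPM in Fsk and 1144, 955 and 378 CPM in DMSO libraries (adjusted p = 0.209), and its highest Fsk value nearly met its lowest DMSO value.

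Of the genes of mineralising tissue 1 fell. Dmp1 (ENSMUSG00000029307, chr5:104202613-104214102, plus strand), a matrix phosphoprotein of osteocytes and dentine, had 23.5, 27.5 and 28.5 CPM in Fsk and 581, 792 and 191 CPM in DMSO libraries. The 3 Fsk values were almost equal, whereas the DMSO values differed severalfold among themselves. Dmp1 fell by 4.30 on the log2 scale (SE 0.65, adjusted p = 0.0118), and it lost its call without any 1 of the Fsk libraries (adjusted p = 0.0661 to 0.0720). The mineralised matrix list of 11 tested genes held no other call, had a median of -1.55 and ran from -6.69 to 0.77. Ibsp, bone sialoprotein, had 0.242, 0.450 and 0.149 CPM in Fsk and 3.13, 84.0 and 0.958 CPM in DMSO libraries, and its log2 change of -6.69 (SE 2.05, adjusted p = 0.202) did not pass, with most of the DMSO signal in DMSO library 3. Enpp1, which makes the mineralisation inhibitor pyrophosphate, had 286, 255 and 108 CPM in Fsk and 1374, 468 and 359 CPM in DMSO libraries, and Ank, which exports a source of it, had 614, 636 and 540.4 CPM in Fsk and 2954, 922 and 1488 CPM in DMSO libraries. Neither passed (adjusted p = 0.25 and 0.235). Spp1, osteopontin, was the most read gene of the list, at 6901, 10022 and 4857 CPM in Fsk and 38020.4, 20927 and 4774 CPM in DMSO libraries, which overlapped.

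Among regulators of osteoblasts and hypertrophic chondrocytes 1 gene fell. Of 16 tested, 15 were negative in log2 change, against 51.7% of all genes, and the median was -0.80. The gene was Mef2c, which drives chondrocyte hypertrophy, with 5.64, 6.07 and 8.12 CPM in Fsk and 39.9, 21.3 and 21.4 CPM in DMSO libraries. The groups were apart, and the log2 change was -2.06 (SE 0.39, adjusted p = 0.0318), held only without DMSO replicate 5 among the 6 fits. Runx2, the master regulator of osteoblasts, had 26.5, 25.1 and 29.5 CPM in Fsk and 48.8, 60.7 and 56.9 CPM in DMSO libraries (log2 change -1.04, SE 0.32, adjusted p = 0.214). Dlx5, a homeobox gene of osteoblasts, had 5.58, 3.09 and 5.05 CPM in Fsk and 27.2, 12.5 and 32.1 CPM in DMSO libraries (adjusted p = 0.107), and Runx3 had 2.49, 1.52 and 0.594 CPM in Fsk and 10.4, 7.71 and 5.03 CPM in DMSO libraries (adjusted p = 0.097). In these 3 genes each Fsk value lay below each DMSO value, and none passed. Sp7, osterix, was at or below 1.40 CPM in every library. In bulk samples fewer cells of a type and less RNA per cell cannot be told apart, which holds for each gene group here.

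**Figure D3:**
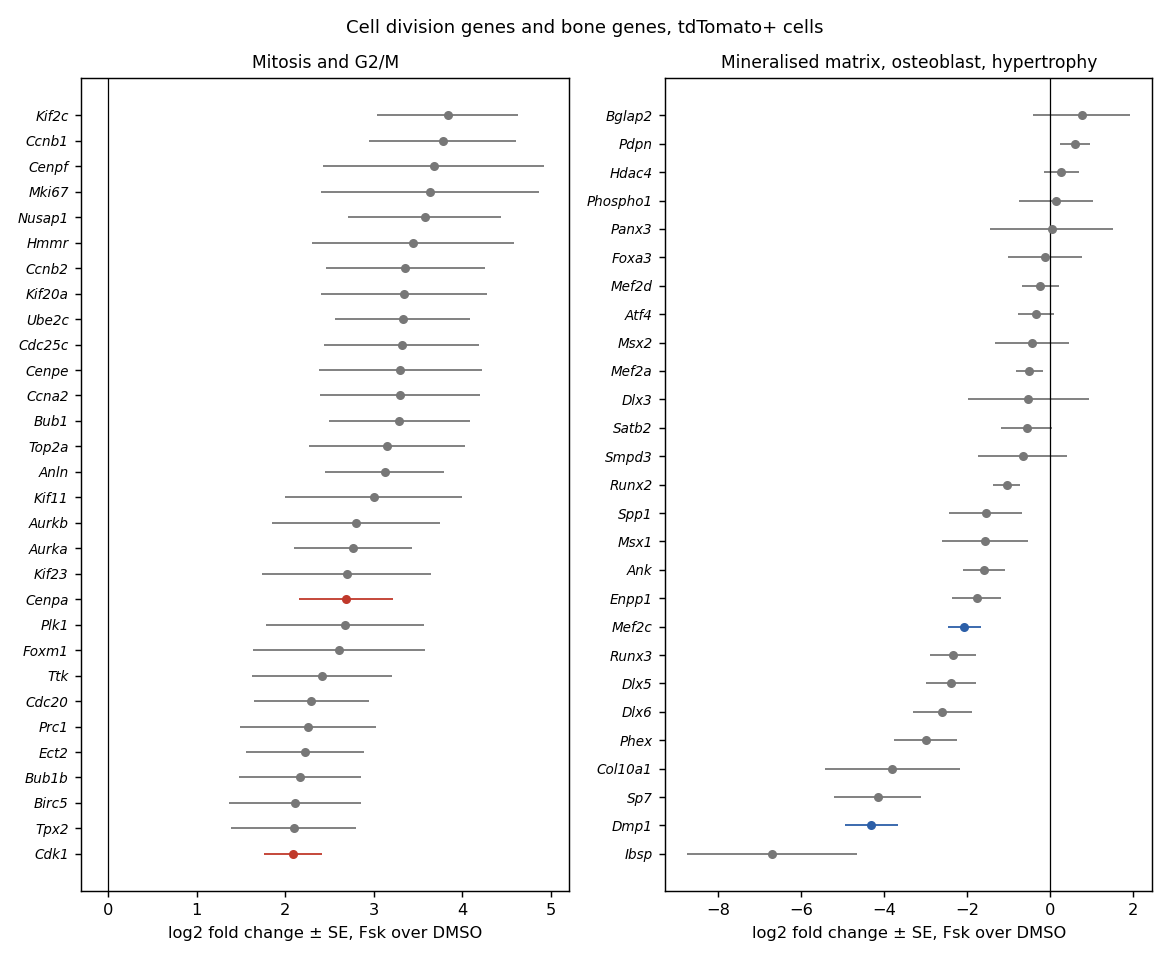
Log2 fold changes, Fsk over DMSO, with their standard errors (n = 3 against 3) for the mitosis and G2/M genes (left) and for the lists of mineralised matrix genes and of osteoblast and hypertrophy regulators together (right). All 30 mitotic genes lie to the right of 0 and 22 of the 27 bone genes to the left, and colour marks the 4 genes past the test (Cdk1 and Cenpa higher, Dmp1 and Mef2c lower).

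Of the cartilage genes, Comp fell. Among 23 tested 16 log2 changes were negative, against 51.7% of all genes, and the median was -0.96. At an unadjusted p below 0.05 in edgeR's test, 2 were higher and 10 lower (4.997% and 5.40% of all genes). The Fsk values lay wholly above the DMSO values in 2 and wholly below in 7 (9.01% and 7.98% of all genes). Comp, a pentameric protein of cartilage and tendon matrix, had 2.91, 2.70 and 1.39 CPM in Fsk and 22.8, 62.4 and 9.38 CPM in DMSO libraries. DMSO library 3 was the highest, and all 3 were above the Fsk values. Comp fell by 3.76 on the log2 scale (SE 0.68, adjusted p = 0.0269), and had -2.79 without DMSO replicate 3. It passed in 2 of the 6 fits without 1 library, those without DMSO replicate 1 or 5, and was lost in the other 4 (adjusted p = 0.086 to 0.145) and by limma-voom (0.119). Col2a1, the main cartilage collagen and the source of the eGFP reporter, had 53.6, 19.7 and 27.5 CPM in Fsk and 187, 390.1 and 82.0 CPM in DMSO libraries. The groups did not overlap, but the log2 change of -2.71 (SE 0.67, adjusted p = 0.106) did not pass. Sox9, the factor that drives the chondrocyte programme, had 108, 65.7 and 56.5 CPM in Fsk and 139, 191 and 147 CPM in DMSO libraries (log2 change -1.06, SE 0.41, adjusted p = 0.359). Ucma, a small secreted protein of cartilage, lay on the other side, at 5.64, 10.6 and 25.6 CPM in Fsk and 0.104, 1.55 and 0.479 CPM in DMSO libraries (adjusted p = 0.146).

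Tendon genes were split evenly. Of 18 tested, 9 log2 changes were positive and 9 negative, the median was -0.02, and 1 gene passed. That gene was Thbs2, a thrombospondin of fibrous matrix, with 119.9, 213 and 132 CPM in Fsk and 981, 1158 and 681 CPM in DMSO libraries. It fell by 2.60 on the log2 scale (SE 0.46, adjusted p = 0.0236), a call held only without DMSO replicate 5 among the 6 fits, where the log2 change ran from -2.42 to -2.89. Scx, the transcription factor of tendon progenitors, pointed the other way, with 323, 479.9 and 357 CPM in Fsk and 163, 100.5 and 229 CPM in DMSO libraries. Each Fsk value exceeded each DMSO value, and the log2 change was 1.24 (SE 0.43, 95% interval 0.31 to 2.16), with an adjusted p of 0.279 that did not pass. Col12a1, a collagen on the surface of tendon fibrils, had 352, 361 and 404 CPM in Fsk and 884, 1273 and 901 CPM in DMSO libraries, and Ccn2, a matricellular growth factor, had 79.6, 153 and 232 CPM in Fsk and 757, 1660.2 and 441 CPM in DMSO libraries. Both were lower in each Fsk library than in any DMSO library, with adjusted p-values of 0.284 and 0.138. In the joint surface list 0 of 13 genes passed edgeR's test, DESeq2 called 2 lower, and the median was -0.42. At an unadjusted p below 0.05 in edgeR's test, 1 was higher and 3 lower (4.997% and 5.40% of all genes).

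Col8a1, Cspg4 and Lamb3 fell. Col8a1, a short-chain collagen of vessel walls and basement membranes, had 6.97, 19.4 and 40.7 CPM in Fsk and 351, 294 and 155 CPM in DMSO libraries (log2 change -3.58, SE 0.55, adjusted p = 0.0118). Cspg4, the proteoglycan NG2 of pericytes and progenitors, had 34.4, 23.5 and 38.6 CPM in Fsk and 498, 184 and 279 CPM in DMSO libraries (log2 change -3.32, SE 0.51, adjusted p = 0.0118). Lamb3, a chain of laminin-332, had 4.79, 1.80 and 0.792 CPM in Fsk and 36.1, 68.3 and 19.2 CPM in DMSO libraries (log2 change -4.07, SE 0.71, adjusted p = 0.0228). In all 3 the lowest DMSO value was several times the highest Fsk value. The log2 change was -4.33 for Col8a1 without Fsk replicate 5 and -4.98 for Lamb3 without Fsk replicate 1. Col8a1 lost its call without Fsk replicate 4, Cspg4 without any 1 of the Fsk replicates, and Lamb3 without Fsk replicate 4, Fsk replicate 5 or DMSO replicate 3, at adjusted p-values of 0.0690 to 0.101. Col8a1 was the 1 gene called of 24 fibrous collagens and cross-linking enzymes (median -0.36), and Lamb3 the 1 called of 20 laminins and basement membrane genes (median -0.16). Cemip, an enzyme that depolymerises hyaluronan, was low in both groups, with 0.909, 0.506 and 0.495 CPM in Fsk and 7.45, 9.88 and 5.31 CPM in DMSO libraries, and fell by 3.56 on the log2 scale (SE 0.54, adjusted p = 0.0118), lost without Fsk replicate 4 or 5 (adjusted p = 0.0668 and 0.0791).

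The matrix metalloproteinases Mmp9 and Mmp12 rose and the inhibitor Timp3 fell. Of 15 metalloproteinases tested 13 had a positive log2 change, against 48.3% of all genes, and the median was 1.05, or 0.71 without Fsk replicate 1. Mmp9, a gelatinase, had 177, 14.2 and 9.41 CPM in Fsk and 1.67, 2.53 and 1.32 CPM in DMSO libraries, and Fsk library 1 held most of the Fsk signal. Its log2 change of 5.18 (SE 0.97, adjusted p = 0.0309) was 2.69 without Fsk replicate 1 (adjusted p = 0.101), and it passed only without Fsk replicate 4 or 5 and not by limma-voom (0.172). Mmp12, an elastase best known from macrophages, had 2167, 259 and 428 reads in Fsk and 3, 0 and 2 reads in DMSO libraries. Its level was 666 times as high in Fsk (95% exact interval 285 to 2053, counting error only), and its adjusted p of 0.0118 was 0.0538 without Fsk replicate 1 and 0.0948 by limma-voom. Its fitted log2 change of 9.35 was 7.71 without Fsk replicate 1 and 10.09 without DMSO replicate 1. Mmp3, stromelysin, had 306, 161 and 94.3 CPM in Fsk and 36.6, 12.1 and 2.20 CPM in DMSO libraries, each Fsk value above each DMSO value (log2 change 3.46, SE 0.84, adjusted p = 0.0979), and did not pass. Timp3, a metalloproteinase inhibitor bound to the matrix, had 27.5, 21.5 and 35.9 CPM in Fsk and 149, 225 and 171 CPM in DMSO libraries and fell by 2.68 on the log2 scale (SE 0.49, adjusted p = 0.0269), held only without DMSO replicate 5. The other 18 of 19 ADAMTS and TIMP genes did not pass, and the median was -0.04.

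The macrophage markers moved in no common direction, although their sum was lower in the Fsk libraries. Of the 5 tested 2 were positive in log2 change and 3 negative, with a median of -0.33, and none passed. The 15 markers listed summed to 11.5 to 24.7 CPM in Fsk and 35.2 to 120 CPM in DMSO libraries, the ranges did not overlap, and Tyrobp, C1qa and C1qb had no read in any of the 6. Cd68, a lysosomal marker, made up most of that sum, with 18.4, 20.1 and 7.48 CPM in Fsk and 58.8, 115 and 31.9 CPM in DMSO libraries, and Csf1r stood at or below 1.16 CPM throughout. Lyz2, lysozyme, had 0.0606, 0.675 and 0.941 CPM in Fsk and 0.104, 0.155 and 0.240 CPM in DMSO libraries, which overlapped (log2 change 1.70, SE 1.31, adjusted p = 0.737). The 9 osteoclast markers summed to 266 to 363 CPM in Fsk and 423 to 718 CPM in DMSO libraries, mostly from Itgb3 and Nfatc1. Of the 5 osteoclast markers tested 3 were positive in log2 change, and Acp5, the defining acid phosphatase, was at or below 1.41 CPM in each library.

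Of cell division genes, Cdk1, Cenpa and Tyms rose, and nearly all others lay on the same side of 0. All 30 mitosis and G2/M genes tested had a positive log2 change, from 2.09 to 3.83 with a median of 3.06, and the median was 2.61 to 3.44 with 1 library left out. The Fsk values lay wholly above the DMSO values in 29 of the 30, against 9.01% of all genes, and all 30 had an unadjusted p below 0.05, against 4.997% of all genes in that direction. After adjustment 2 of the 30 passed, Cdk1 and Cenpa. Cdk1, the kinase that starts mitosis, had 107, 66.2 and 101 CPM in Fsk and 19.9, 25.6 and 19.2 CPM in DMSO libraries (log2 change 2.09, SE 0.33, adjusted p = 0.0122). Cenpa, the histone of the centromere, had 101, 33.6 and 61.2 CPM in Fsk and 4.64, 14.6 and 11.1 CPM in DMSO libraries (log2 change 2.69, SE 0.53, adjusted p = 0.0401). Fsk library 4 was the lowest of its group for both, and still above all DMSO libraries. Cdk1 passed only without Fsk replicate 4 or DMSO replicate 3, and Cenpa in none of the 6 fits, with 2.24 without Fsk replicate 1 (adjusted p = 0.163). These genes are expressed together through the cycle and are not independent of each other.

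Among 29 DNA replication and G1/S genes, 26 were positive in log2 change, against 48.3% of all genes, and the median was 1.34. The Fsk values lay wholly above the DMSO values in 18, against 9.01% of all genes, and 1 gene passed. Tyms, thymidylate synthase, had 44.3, 41.6 and 70.8 CPM in Fsk and 11.9, 8.22 and 13.7 CPM in DMSO libraries, a log2 rise of 2.21 (SE 0.41, adjusted p = 0.0294), with adjusted p-values of 0.0666 to 0.145 in the 6 fits. Outside the lists, Cks1b, a partner of cyclin-dependent kinases, had 68.7, 62.1 and 76.9 CPM in Fsk and 20.4, 21.4 and 20.1 CPM in DMSO libraries, with the groups tightly gathered around separate levels. It rose by 1.75 on the log2 scale (SE 0.26, adjusted p = 0.0118) and had adjusted p-values of 0.0524 to 0.0675 in 3 of the 6 fits, those without Fsk replicate 5, DMSO replicate 1 or DMSO replicate 3. Knstrn, a spindle and kinetochore protein, had 36.0, 15.1 and 32.0 CPM in Fsk and 2.92, 1.45 and 3.19 CPM in DMSO libraries, a log2 rise of 3.45 (SE 0.51, adjusted p = 0.0118) that missed the threshold without Fsk replicate 1 (adjusted p = 0.0538). Stmn1, a microtubule-destabilising protein of dividing cells and neurons, had 128, 38.6 and 90.1 CPM in Fsk and 8.55, 9.83 and 19.4 CPM in DMSO libraries, a log2 rise of 2.76 (SE 0.53, adjusted p = 0.0331) held only without Fsk replicate 4 or DMSO replicate 5. Of the 18 cell cycle brakes and D cyclins 0 passed edgeR's test, DESeq2 called 1 in each direction, and the median was -0.20. At an unadjusted p below 0.05 in edgeR's test, 2 were higher and 3 lower (4.997% and 5.40% of all genes). In that list Cdkn1a, the p53-responsive inhibitor p21, had 459.6, 559 and 325 CPM in Fsk and 955, 1434 and 956 CPM in DMSO libraries, each Fsk value below each DMSO value, with an adjusted p of 0.233.

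Tbc1d2, Mgll and Als2cl were the falls that held in every fit without 1 library. Tbc1d2, a regulator of Rab GTPases in membrane traffic, had 14.3, 10.1 and 8.17 CPM in Fsk and 60.2, 54.8 and 76.9 CPM in DMSO libraries, a log2 change of -2.56 (SE 0.31, adjusted p = 0.0062). Mgll, the lipase that breaks down the endocannabinoid 2-arachidonoylglycerol, had 4.18, 8.54 and 4.21 CPM in Fsk and 60.1, 58.0 and 41.4 CPM in DMSO libraries, a log2 change of -3.23 (SE 0.39, adjusted p = 0.0062). Values within each group of both genes were close. Als2cl had 2.0, 0.675 and 1.63 CPM in Fsk and 27.4, 22.9 and 10.1 CPM in DMSO libraries (log2 change -3.80, SE 0.54). Its annotated span on chromosome 9 (110879870 to 110900530, plus strand, GRCm38) overlaps that of Tmie (110865711 to 110880113, minus strand), a hair cell channel component gene that fell too. Whether counting used strand is not stated in the labels, so reads in the shared stretch cannot be assigned. Tmie had 1, 1 and 0 reads in Fsk and 115, 249 and 30 reads in DMSO libraries, and its DMSO level was 169 times its Fsk level (95% exact interval 46.4 to 1399, counting error only). Its call was lost without any 1 of the Fsk replicates (adjusted p = 0.0708 to 0.0996), and the fitted log2 change of -7.25 was -6.35 without DMSO replicate 3. It did not pass by limma-voom (adjusted p = 0.241).

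Rgs16, Foxf2, Pax9 and Lgr6 fell too. Rgs16, which switches off G protein signals, had 3.03, 2.64 and 2.77 CPM in Fsk and 22.6, 72.4 and 32.9 CPM in DMSO libraries, a log2 change of -3.92 (SE 0.77, adjusted p = 0.0395) that passed in none of the 6 fits and was -3.30 without DMSO replicate 3. No other of 12 RGS genes passed, and their median was -0.44. Foxf2, a forkhead factor that hedgehog signals induce in mesenchyme, had 0.849, 3.32 and 2.38 CPM in Fsk and 15.1, 13.4 and 17.2 CPM in DMSO libraries (log2 change -2.80, SE 0.49, adjusted p = 0.0228) and was the 1 call of 13 hedgehog pathway genes (median -0.33). Pax9, a patterning factor of the sclerotome, had 1.03, 0.450 and 0.347 CPM in Fsk and 6.41, 9.88 and 5.87 CPM in DMSO libraries, a log2 change of -3.60 (SE 0.56, adjusted p = 0.0118). Lgr6, a receptor for R-spondins on progenitor cells, had 8.30, 4.72 and 11.5 CPM in Fsk and 53.3, 37.5 and 113 CPM in DMSO libraries, a log2 change of -3.05 (SE 0.57, adjusted p = 0.0305). Each of these genes was lower in every Fsk library than in any DMSO library. Foxf2 held its call only without Fsk replicate 4 and Lgr6 only without DMSO replicate 3, while Pax9 lost it without Fsk replicate 4, Fsk replicate 5 or DMSO replicate 3 (adjusted p = 0.0528 to 0.0857) and was -4.18 without Fsk replicate 1. Fgf13, a factor inside the cell that modulates sodium channels, and Amer2, an inhibitor of WNT signalling at the membrane, changed by -2.93 (SE 0.44) and -4.46 (SE 0.66) on the log2 scale. Both lost the call without Fsk replicate 1 (adjusted p = 0.0607 and 0.0576), and Fgf13 also without Fsk replicate 4 (0.0668). Kank1, an organiser of actin at adhesions, and Rhbdf2, a catalytically dead rhomboid that carries the sheddase ADAM17 to the surface, changed by -1.83 (SE 0.36) and -1.94 (SE 0.39), and each passed in 1 of the 6 fits.

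Other called genes were named after their values were seen. Cd34, a surface sialomucin of vascular and stromal progenitors, had 80.1, 59.2 and 27.5 CPM in Fsk and 12.8, 6.93 and 5.95 CPM in DMSO libraries, a log2 rise of 2.70 (SE 0.47, adjusted p = 0.0225). Rorb, a nuclear receptor gene of neurons and bone cells, had 15.2, 10.5 and 10.6 CPM in Fsk and 0.573, 0.310 and 0.559 CPM in DMSO libraries, a log2 rise of 4.63 (SE 0.79, adjusted p = 0.0206). The rise of Ctla2a, at 18.4, 95.7 and 104 CPM in Fsk and 6.20, 4.50 and 5.79 CPM in DMSO libraries, is uncertain because a close paralogue may share its reads. The antisense gene A830082K12Rik had 73, 58 and 158 reads in Fsk and 0 reads in each DMSO library, so that its level was at least 37.5-fold higher with a floor of 3 reads per DMSO library, and without known strand its reads cannot be told apart from those of its partner. Ace, the angiotensin-converting enzyme, had 1.70, 0.393 and 0.644 CPM in Fsk and 21.9, 115 and 6.11 CPM in DMSO libraries, highest in DMSO library 3, a log2 change of -5.71 (SE 1.13, adjusted p = 0.0395). Fzd5, a WNT receptor, had 14.7, 16.6 and 16.9 CPM in Fsk and 54.6, 66.1 and 52.3 CPM in DMSO libraries, tightly gathered in both groups, a log2 change of -1.84 (SE 0.32, adjusted p = 0.0228). Adra1d, an alpha-1 adrenergic receptor that signals through calcium, had 0.849, 0.731 and 0.297 CPM in Fsk and 23.9, 5.17 and 11.3 CPM in DMSO libraries, a log2 change of -4.42 (SE 0.83, adjusted p = 0.0305).

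Each of these 7 calls was lost in some of the fits without 1 library. Fzd5, Ace and A830082K12Rik passed only without DMSO replicate 5, Ctla2a only without Fsk replicate 1, Adra1d only without DMSO replicate 3 or 5, Cd34 only without Fsk replicate 5 or DMSO replicate 1, and Rorb in none of the 6. The log2 change of Ace was -3.95 without DMSO replicate 3 and -6.48 without Fsk replicate 1, and that of Adra1d was -3.71 without DMSO replicate 1.

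Further rises were named in the same way. Gpm6b had 49.5, 52.7 and 66.5 CPM in Fsk and 5.0, 9.57 and 6.23 CPM in DMSO libraries, a log2 rise of 3.02 (SE 0.46), and missed the threshold without DMSO replicate 1 (adjusted p = 0.0524). Cpm, carboxypeptidase M, which trims basic residues from peptides at the cell surface, had 76.9, 34.1 and 53.1 CPM in Fsk and 4.12, 8.28 and 6.39 CPM in DMSO libraries, a log2 rise of 3.13 (SE 0.48). Gfra4, the co-receptor for persephin, had 41.0, 36.8 and 26.1 CPM in Fsk and 7.19, 4.09 and 4.67 CPM in DMSO libraries, a log2 rise of 2.70 (SE 0.42). The groups of all 3 were clear of each other. Cpm lost its call without Fsk replicate 1 or DMSO replicate 1, and Gfra4 without Fsk replicate 1, Fsk replicate 4 or DMSO replicate 3. Pcdh8, a protocadherin, had 21.9, 23.7 and 29.5 CPM in Fsk and 0.938, 0.621 and 1.32 CPM in DMSO libraries, and Add3, an adducin of the spectrin skeleton, 59.9, 44.1 and 57.9 CPM in Fsk and 19.5, 13.7 and 16.6 CPM in DMSO libraries. Both pairs of groups were tight, with log2 rises of 4.69 (SE 0.87) and 1.70 (SE 0.30), yet neither passed in any of the 6 fits.

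Spock3, a testican proteoglycan, had 299, 161 and 83 reads in Fsk and 0, 0 and 6 reads in DMSO libraries, a level 106 times as high (95% exact interval 48.2 to 289, counting error only), and its fitted log2 change of 6.78 was 6.15 without Fsk replicate 1 and 10.53 without DMSO replicate 5. Cpxm2, a carboxypeptidase-like secreted protein, had 8.67, 21 and 29.9 CPM in Fsk and 0.938, 0.466 and 1.20 CPM in DMSO libraries, and Angptl1, an angiopoietin-like protein, had 8.24, 9.84 and 8.27 CPM in Fsk and 0.678, 0.724 and 1.24 CPM in DMSO libraries. They rose by 4.50 on the log2 scale (SE 0.86) and 3.30 (SE 0.54). Pid1, an adaptor that blunts insulin signalling in fat cells, rose by 2.20 on the log2 scale (SE 0.35) and Pdzrn4 by 4.18 (SE 0.73). Wscd1, with 50.1, 10.7 and 14.3 CPM in Fsk and 1.72, 0.776 and 2.91 CPM in DMSO libraries, was again highest in Fsk library 1, and its log2 change of 3.78 was 2.79 without that library. Jpt1, a small protein of dividing and neural cells, had 145, 112 and 118 CPM in Fsk and 27.4, 25.8 and 50.3 CPM in DMSO libraries, a log2 rise of 1.86 (SE 0.35). Of the division genes outside the lists, Cdkn3, a phosphatase that acts on CDKs, had 13.9, 8.09 and 16.2 CPM in Fsk and 0.834, 0.879 and 1.96 CPM in DMSO libraries, and Cenph, a kinetochore protein, had 9.70, 7.31 and 14.6 CPM in Fsk and 1.20, 0.466 and 1.76 CPM in DMSO libraries. The non-coding genes Lockd and C430049B03Rik rose by 3.11 on the log2 scale (SE 0.53) and 3.22 (SE 0.64). These 11 genes passed in 0 to 2 of the 6 fits without 1 library.

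The other falls were named after their values were seen as well. Nebl, a nebulin-like protein of actin filaments, had 2.67, 2.36 and 2.72 CPM in Fsk and 39.6, 21.3 and 12 CPM in DMSO libraries, a log2 change of -3.23 (SE 0.53). Hspb7, a small heat shock protein of heart and muscle, had 4, 1 and 0 reads in Fsk and 210, 325 and 97 reads in DMSO libraries, and its DMSO level was 108 times its Fsk level (95% exact interval 46.2 to 335, counting error only). Both are muscle genes outside the cardiac marker list, whose sum was 3.26 to 14.2 CPM in Fsk and 12.4 to 28.0 CPM in DMSO libraries. Cpne7, a calcium-binding copine, had 1.82, 1.63 and 1.04 CPM in Fsk and 10.9, 82.9 and 19.5 CPM in DMSO libraries, highest in DMSO library 3. Odaph, a phosphoprotein needed for enamel mineralisation, had 6.42, 5.45 and 2.72 CPM in Fsk and 56.5, 38.3 and 17.8 CPM in DMSO libraries, a log2 change of -2.95 (SE 0.55). Lingo1, a partner of the Nogo receptor that restrains axon growth, had 2.30, 3.32 and 1.49 CPM in Fsk and 21.4, 15.7 and 11.0 CPM in DMSO libraries, a log2 change of -2.76 (SE 0.46). In all 5 genes each Fsk value was below each DMSO value. Odaph and Lingo1 passed only without DMSO replicate 5, Nebl only without DMSO replicate 3 or 5, Hspb7 only without DMSO replicate 1 or 5, and Cpne7 lost its call without any 1 of the Fsk replicates. Without DMSO replicate 3 the log2 change of Cpne7 was -3.34, against -4.66 with all libraries. The fitted log2 change of Hspb7, -6.71, was -8.30 without Fsk replicate 1 and -6.08 without Fsk replicate 5.

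Gpr176, an orphan receptor of the circadian clock, had 0.727, 1.97 and 1.73 CPM in Fsk and 13.3, 11.1 and 9.10 CPM in DMSO libraries, a log2 change of -2.91 (SE 0.49). Slc1a1, a glutamate and cysteine transporter, had 0.303, 0.562 and 0.198 CPM in Fsk and 2.66, 6.93 and 2.0 CPM in DMSO libraries, a log2 change of -3.43 (SE 0.69). Both passed only without DMSO replicate 5, and Slc1a1 was at -2.70 without DMSO replicate 3. Mtss1, which bends membranes and binds actin, had 6.73, 3.26 and 4.21 CPM in Fsk and 21.4, 38.2 and 40.9 CPM in DMSO libraries, Rab11fip4, an effector of recycling endosomes, 4.91, 3.04 and 4.31 CPM in Fsk and 30.4, 30.4 and 53.4 CPM in DMSO libraries, and Zfp618 15.3, 8.99 and 11.1 CPM in Fsk and 53.8, 41.6 and 34.9 CPM in DMSO libraries. Mtss1 and Rab11fip4 passed only without DMSO replicate 1 and Zfp618 only without DMSO replicate 5. A further 7 falls were Fam189a1, Gm34425, B4galnt3, Mtus2, Tmem151a, Alpk2 and 4930523C07Rik, with log2 changes from -4.38 to -2.95. Leaving out a library moved 3 of them by over 1.5 times, Mtus2 to -5.29 without Fsk replicate 5, Gm34425 to -4.93 without Fsk replicate 1 and Alpk2 to -3.25 without DMSO replicate 3.

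Of the 41 lists of pathways and tissues, 20 held at least 1 called gene and 21 held none, and 27 of the 92 called genes were in a list. The medians of the 21 lists without a call ran from -0.47 for BMP ligands, antagonists and targets to 0.84 for interferon-stimulated and antigen presentation genes. DESeq2, which called 566 of all 16169 genes, called 3 interferon-stimulated and 2 cholesterol synthesis genes higher and 3 YAP and TEAD targets lower. In the interferon list 19 of 22 log2 changes were positive, against 48.3% of all genes. Isg15, a ubiquitin-like antiviral protein, had 2.97, 11.9 and 7.08 CPM in Fsk and 1.20, 1.45 and 1.64 CPM in DMSO libraries (adjusted p = 0.184). In cholesterol synthesis 17 of 18 were positive, against 48.3% of all genes, with a median of 0.68. Cyp51, the sterol demethylase, had 180.0, 151 and 154 CPM in Fsk and 73.0, 82.5 and 54.3 CPM in DMSO libraries (log2 change 1.21, SE 0.28, adjusted p = 0.0851). For both genes each Fsk value exceeded each DMSO value, without passing. Of 18 YAP and TEAD targets, 13 were negative in log2 change, against 51.7% of all genes (median -0.39). Nt5e, the ecto-enzyme that makes adenosine, had 11.6, 17.3 and 10.7 CPM in Fsk and 369, 82.9 and 29.7 CPM in DMSO libraries (adjusted p = 0.068). The inducible chaperones Hspa1a and Hspa1b, whose near-identical sequences can share reads, were at -5.57 (SE 1.46) and -5.30 (SE 1.34) in log2 change, with adjusted p-values of 0.123 and 0.107. The 12 chaperones tested had a median of -0.12. Cytosolic ribosomal protein genes had a median of 0.06, and mitochondrially encoded genes one of 0.70, with 0.41 without DMSO replicate 5.

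**Figure D4:**
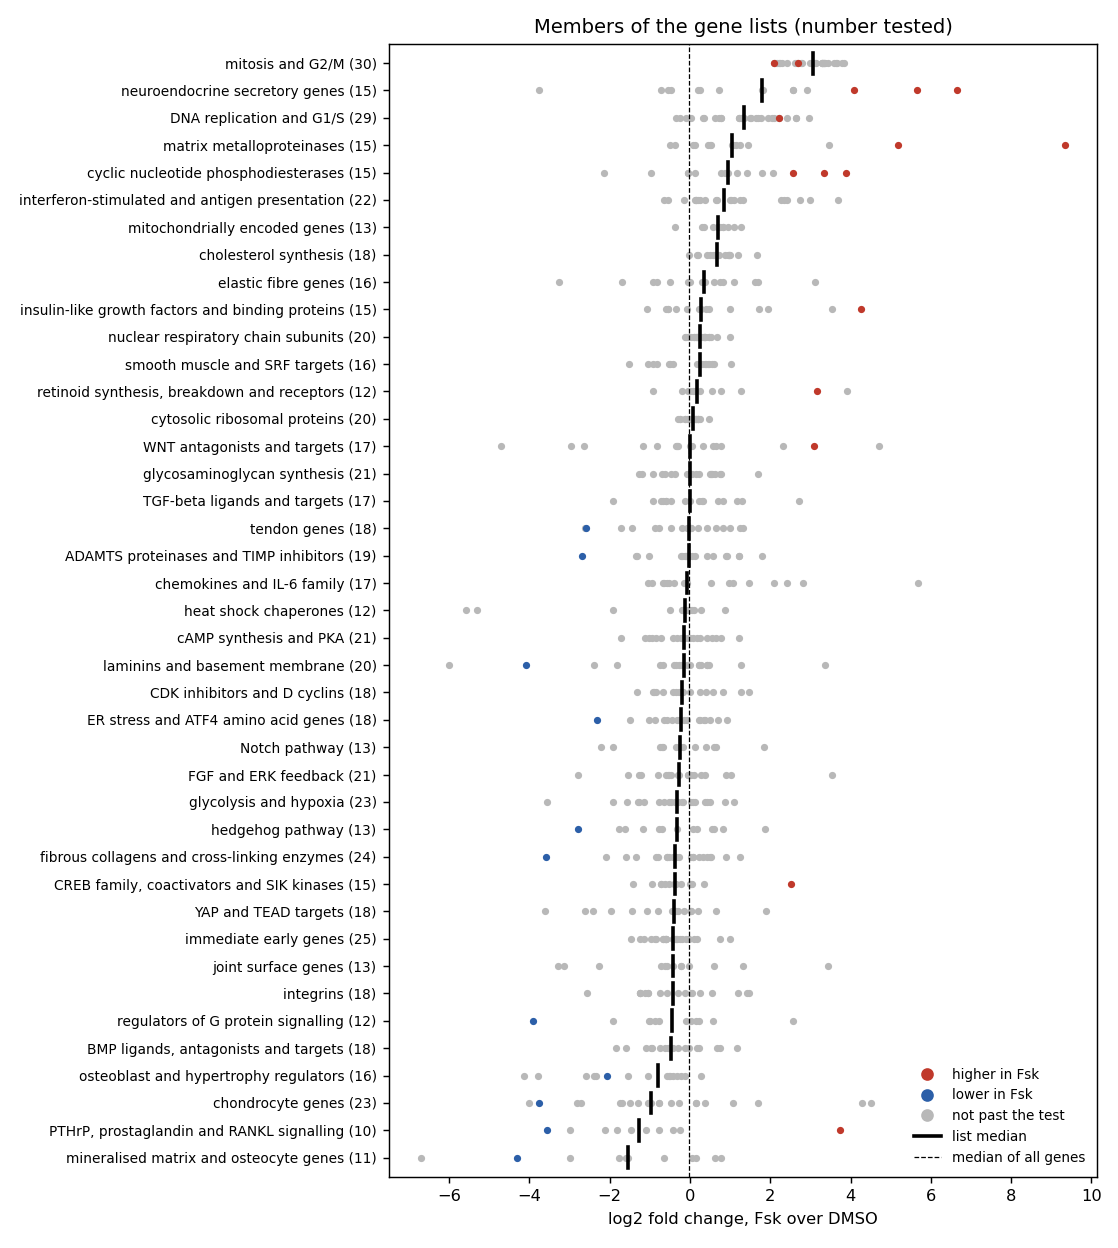
Log2 fold changes, Fsk over DMSO, of the tested members of 41 gene lists (number tested in brackets), ordered by list median (black bar), with the median of all genes as a dashed line. The mitosis list, with a median of 3.06, and the mineralised matrix list, with -1.55, stand at the 2 ends, and called genes (red higher, blue lower) are few in every list.

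The Fsk libraries were not alike in how strongly they showed the rises. Of the 48 genes that rose, 26 were highest in Fsk library 1, 8 in library 4 and 14 in library 5. Library 1 led in Syt13, Mmp12, Mmp9, Igfbp2, Npy and Gap43, whereas Scg2, Wif1, Lrrc17 and Otor were lowest there. Of the 44 genes that fell, 15 were highest in DMSO library 1, 22 in library 3 and 7 in library 5. Ribosomal RNA genes took 0.185 to 4.62% of Fsk counts, most in library 1, and 0.109 to 2.59% of DMSO counts. Markers of other cells also differed between libraries. Epithelial and endoderm markers summed to 11.5 to 87.0 CPM in Fsk and 9.06 to 36.6 CPM in DMSO libraries, and Krt18, a keratin of simple epithelia, had 36.9, 5.96 and 4.85 CPM in Fsk and 2.29, 7.24 and 1.08 CPM in DMSO libraries, highest in Fsk library 1. Notochord markers summed to 85.6 to 147 CPM in Fsk and 11.8 to 58.2 CPM in DMSO libraries, in Fsk mostly from Cd24a, and 3 of the 6 tested were positive in log2 change, while T, brachyury, was at or below 0.618 CPM in Fsk libraries and had 3.96, 9.05 and 0.599 CPM in DMSO libraries. Adipocyte markers summed to 113 to 302 CPM in Fsk and 39.8 to 199 CPM in DMSO libraries, ranges that overlap, in Fsk mostly from Fabp4. Of the 5 adipocyte markers tested 3 were negative in log2 change and the median was -0.68. Cebpa had 9.94, 12.8 and 8.96 CPM in Fsk and 24.4, 21.7 and 20.04 CPM in DMSO libraries and Lpl 0.121, 0.225 and 0.644 CPM in Fsk and 0.730, 7.03 and 1.44 CPM in DMSO libraries, each Fsk value below each DMSO value, without passing (adjusted p = 0.224 and 0.231). Endothelial markers summed to 26.8 to 41.2 CPM in Fsk and 27.7 to 47.9 CPM in DMSO libraries, and blood, skeletal muscle and glial markers stayed at or below 18.1 CPM in each library. The part of such cells, or of ribosomal RNA, in the gene changes was not tested.

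**Figure D5:**
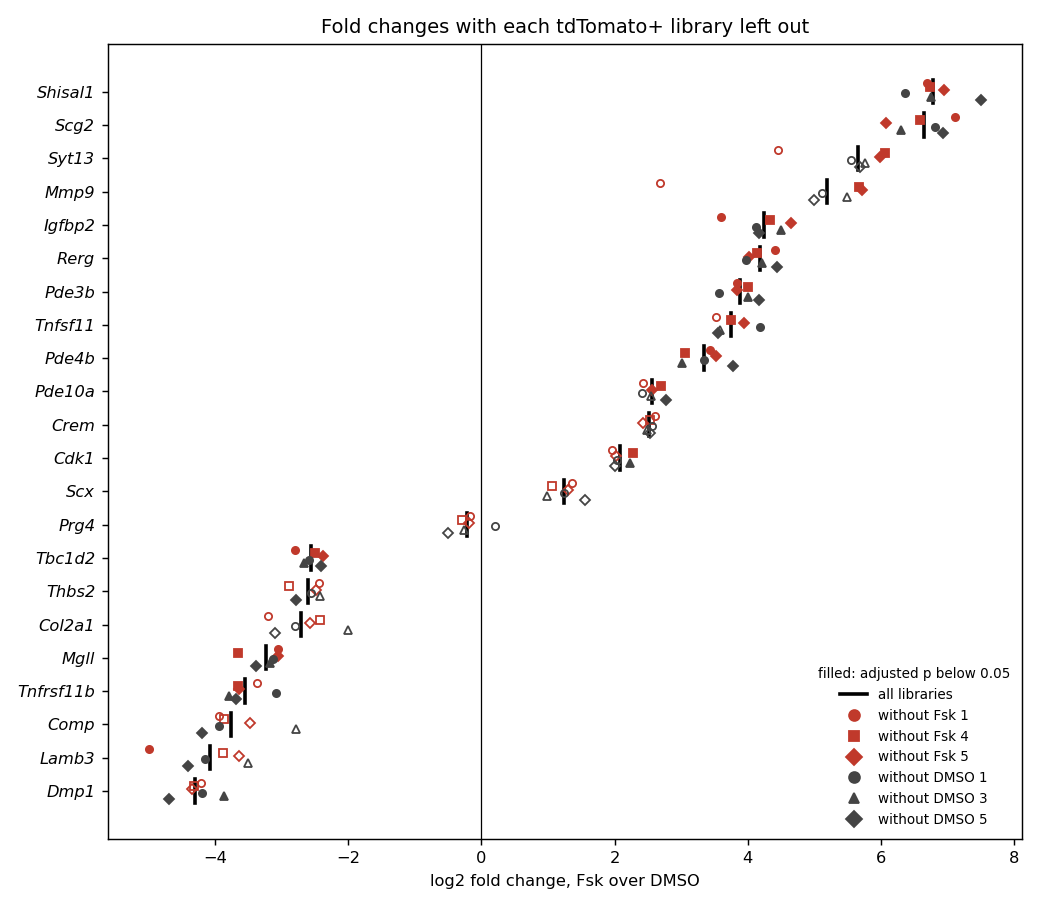
Log2 fold changes, Fsk over DMSO, of 22 genes with all libraries (black bar) and with each tdTomato+ library left out (Fsk in red, DMSO in grey, filled where the adjusted p is below 0.05). Most genes shift little, Mmp9 stands at 2.69 without Fsk replicate 1, and only Prg4 crosses 0.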

How the data were processed

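Poly(A) RNA of sorted cells was extracted with Trizol, per the labels. The authors deposited 1 table of raw read counts per gene for all 10 libraries (56748 genes), whose values are whole numbers. The genome build is mm10 per the submitters' processing notes. For the aligner, counting program, annotation and strand setting, nothing is given in the sources used here. Coordinates are those of GENCODE M21 (GRCm38), matched by identifier.

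The test was edgeR 4.0.16 under R 4.3.3, with a robust quasi-likelihood fit of the 3 groups to all 10 libraries (7 residual degrees of freedom), TMM scaling and the 16169 genes that filterByExpr keeps. P-values were adjusted over all genes by Benjamini-Hochberg at 0.05. The standard error is the log2 fold change divided by the square root of F, and CPM are on TMM-scaled sizes. Alternatives were DESeq2 1.42.0, limma-voom 3.58.1, RLE scaling, other filters, a 2-fold threshold, the 6 tdTomato+ libraries alone, no mitochondrial genes, the replicate number as a block, and each library left out. The steps were tested on simulated counts.

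The comparison, the 53 gene lists and the rule for named genes were chosen with earlier results of these data known. Named genes were the reporter genes, Pde4b, Crem, Scg2, Dmp1 and Scx, the 12 smallest p-values and the 8 highest levels among called genes in each direction, and up to 4 called members of each list or, where none was called, the 2 with the smallest p. Other genes were chosen after their values were seen, including Pde4d, Pde3a, Prkar1a, Nr4a1, Sox9, Pth1r, Ptgs2 and further uncalled members of lists. One of the called genes is not reported here. Replicate counts differed by more than sampling noise for each pair (chi-square per degree of freedom at least 98.7).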

Additional observations from a re-analysis of the deposited data

How the results depend on the processing

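Genes past the threshold numbered 92 (48 higher, 44 lower) in the fit reported. They numbered 566 (294 and 272) by DESeq2, 462 (261 and 201) without a filter on low counts, 260 (161 and 99) in the 6 tdTomato+ libraries alone and 27 (14 and 13) against a 2-fold threshold. By limma-voom they were 74, with 50 higher and 24 lower, of which 60 were among the 92. RLE scaling and removal of mitochondrially encoded genes left 92, and a filter of 1 CPM in 3 libraries gave 93. With 1 library left out, 22 to 75 genes changed, 13 to 28 rose and 6 to 47 fell. Those fits have fewer samples, and the lost calls of the named genes mostly had adjusted p-values between 0.05 and 0.2. All 92 genes kept their direction under every alternative run. With the replicate number as a block, 508 genes passed (264 higher, 244 lower), the 92 among them. Deviations of same-numbered libraries correlated at 0.109 and 0.403, but those of differently numbered ones reached 0.312. On the second principal component (24.3% of the variance) Fsk and DMSO libraries 5 lay at 59.8 and 48.2, and libraries 1 at 0.10 and -83.9. By chi-square per degree of freedom, DMSO library 5 was nearer to eGFP+ library 5 (118) and Fsk library 5 (145) than to DMSO libraries 1 and 3 (228 and 232). Fsk library 5 was nearest to Fsk library 4 (98.7). With 2 shared numbers the pairing is not established, and the fit reported takes the 10 libraries as independent. Signs that turned (ranges are over the fits without 1 library) were all of genes that did not pass: Prg4 (-0.50 to 0.20), Rps2 (-0.65 to 0.049), Erg (-1.21 to 0.19), Klf2 (-0.76 to 1.15, and 0.24 by limma-voom), Nanog (-0.28 to 0.70) and Klf1 with the block (-0.41). The mitochondrial difference of 1.56 percentage points was 0.982 to 2.38 with 1 library left out. With 3 libraries a group and a common biological coefficient of variation of 0.507, no gene with a log2 change under 1.70 in size passed in the fit reported.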
